A study of Homo sapiens with 36 samples.

Results

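The 39 HOX cluster genes were followed through neuronal induction of H9 cells, an established human embryonic stem cell line, with 3 genotypes of RAI1, a nuclear chromatin protein. Members were all rows whose gene symbol is HOX, a cluster letter from A to D and a paralog number, which gave 39 of 62710 genes: 11 in the HOXA cluster, 10 in HOXB, 9 in HOXC and 9 in HOXD. The labels give wild-type (WT), heterozygous (HET) and knockout (KO) cells, each collected before (day 0) and on days 3 and 7 of differentiation driven by doxycycline-dependent NGN2, with 4 libraries in each of the 9 groups and 36 in all. All groups, WT included, carry the label of NGN2 induction and share 1 batch label, so day 0 is the only uninduced reference. The labels call the 4 libraries of a group biological replicates. They do not give the mutation, the number of clones, or whether libraries with the same replicate number share a clone, a culture or a day, and p-values below therefore measure only the spread between these libraries.

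HOX genes code for homeodomain transcription factors that lie side by side in 4 clusters. Genes with low paralog numbers, at the 3′ end of a cluster, are known to be switched on early and in the hindbrain, and genes with high paralog numbers, at the 5′ end, later and in the trunk, limbs and tail. In pluripotent stem cells the clusters are known to be held silent by Polycomb proteins, and neurons induced directly with NGN2 are known to have mixed forebrain and peripheral features. HOX proteins bind DNA with the TALE homeodomain partners PBX and MEIS, and CDX proteins, retinoic acid, WNT and FGF signals are known upstream activators.

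In the GENCODE 29 annotation of GRCh38, the HOXA cluster spans chr7:27092993-27200106 (107 kb), HOXB chr17:48528526-48729178 (201 kb), HOXC chr12:53938765-54056030 (117 kb) and HOXD chr2:176092891-176190907 (98 kb). Of the 39 members, 33 overlap at least 1 other annotated gene and 24 overlap one on the same strand, and the sources used here do not say whether strand was used in counting, so reads may be shared between neighbours. RefSeq promoter entries were matched to 20 of the 39 members (27 entries, GRCh38.p14). The promoters of 3 members are shown, as the 250 bases before the transcription start on the gene's own strand, for a 3′ gene (HOXB1), a middle gene (HOXA9) and a 5′ gene (HOXD11) of the pattern described below. Capitals mark matches to TGATNNAT, a site for PBX and HOX pairs, to TTTATG, the CDX core, or to CAGATG, an E-box preferred by proneural factors such as NGN2, on either strand.
HOXB1 (chr17:48531012-48531261, minus strand): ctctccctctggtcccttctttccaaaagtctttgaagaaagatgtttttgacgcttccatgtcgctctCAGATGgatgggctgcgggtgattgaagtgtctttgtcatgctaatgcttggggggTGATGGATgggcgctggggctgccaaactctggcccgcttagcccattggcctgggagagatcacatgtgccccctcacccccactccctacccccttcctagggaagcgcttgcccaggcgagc
HOXA9 (chr7:27165538-27165787, minus strand): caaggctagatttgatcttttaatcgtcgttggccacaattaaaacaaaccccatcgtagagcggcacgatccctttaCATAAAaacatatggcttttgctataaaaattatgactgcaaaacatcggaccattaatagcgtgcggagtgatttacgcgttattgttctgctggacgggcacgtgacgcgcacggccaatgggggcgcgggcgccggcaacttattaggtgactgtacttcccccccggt
HOXD11 (chr2:176107030-176107279, plus strand): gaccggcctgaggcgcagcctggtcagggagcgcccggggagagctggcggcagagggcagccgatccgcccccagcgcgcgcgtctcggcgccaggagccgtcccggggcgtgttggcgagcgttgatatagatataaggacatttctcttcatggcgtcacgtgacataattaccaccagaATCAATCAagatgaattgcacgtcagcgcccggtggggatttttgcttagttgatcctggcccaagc
HOXB1 held both the PBX and HOX pair motif and the E-box, HOXA9 the CDX core and HOXD11 the pair motif. Over the 27 HOX entries, TGATNNAT was present in 3 (11.1%, in HOXA2, HOXB1 and HOXD11) against 6.47% of all 35116 promoters. TTTATG was present in 3 (11.1%, in HOXA3, HOXA9 and HOXD8) against 9.64%, and CAGATG in 2 (7.41%, in HOXA6 and HOXB1) against 12.2%. The median number of CpG dinucleotides was 19 in the HOX entries and 11 in all promoters. Such matches describe the letters only.

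Libraries held 23948079 to 56678796 counts, and small structural RNAs took 2.84% to 27.5% of them. RAI1 levels in CPM, the usual scaling of counts to the library total, did not separate the genotypes: at day 0 the range was 23.9 to 43.1 in WT, 29.6 to 51.4 in HET and 25.3 to 53.8 in KO, so gene-level counts do not check the genotype labels. POU5F1, NANOG and the 3 other pluripotency markers summed to between 1880 and 3952 CPM in the day 0 libraries and the 6 neuronal markers to between 5017 and 12953 CPM at day 7. NEUROG2, the induced gene itself, differed between genotypes at day 3, with 19469 to 24748 CPM in WT, 14425 to 17470 in HET and 7505 to 9748 in KO. KO was the lowest at the other days too. At day 0 the ranges were 11.6 to 34.5 CPM in WT, 5.07 to 13.1 in HET and 1.63 to 2.4 in KO. At day 7 they were 43.6 to 86.5 in WT, 59 to 71.7 in HET and 18.3 to 28.1 in KO. The part of NEUROG2 in the HOX differences was not tested.

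Replicate 1 of HET and of KO stood apart from every other library in HOX expression, at all 3 days. Summed over the 39 members, day 0 HET libraries held 307, 0.672, 4.43 and 11.5 CPM in replicates 1 to 4, and day 0 KO libraries held 230, 4.94, 9.68 and 12.2. The 4 day 0 WT libraries held 0.830, 0.499, 0.980 and 0.611. Replicate 1 of WT was not apart, and the replicate 1 libraries of the mutants were the highest of their group by at least an order of magnitude at day 0.

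At day 3 the sums were 17.6, 11.0, 11.8 and 8.15 CPM in WT, 153, 12.2, 16.4 and 12.8 in HET and 108, 8.38, 17.6 and 12.6 in KO. At day 7 they were 26.4, 14.3, 13.2 and 26.3 in WT, 311, 12.6, 15.5 and 31.2 in HET and 164, 12.5, 19.3 and 21.5 in KO. Replicates 2 to 4 of both mutants thus lay within or near the WT range at days 3 and 7, while replicate 1 lay far above it. Of the 65316 counts that all 39 members gathered over the 36 libraries, 51032 (78.1%) lay in those 6 libraries. For 37 of the 39 members these 6 libraries held most of the counts, and the comparisons of HET or KO with WT within a day are therefore given with them and without them.

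**Figure D1:**
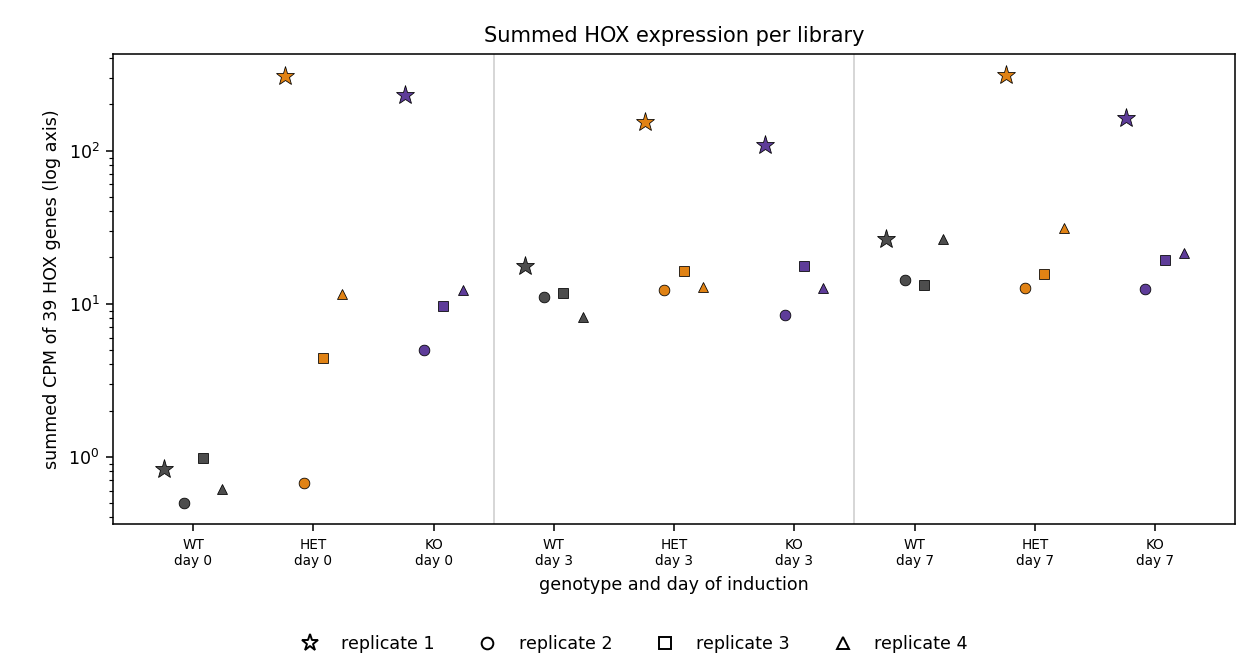
Summed CPM of the 39 HOX genes in each of the 36 libraries (log axis), by genotype and day, with replicate 1 drawn as a star. The stars of HET and KO lie between 108 and 311 CPM, and all other libraries lie at 31.2 CPM or below.

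During induction of WT cells a few HOX genes rose, led by HOXB2. This gene, known from hindbrain segments, had 0.0593, 0, 0 and 0.0322 CPM in the 4 day 0 libraries, 13.7, 7.89, 8.17 and 5.93 at day 3, and 16.7, 6.25, 5.91 and 15.7 at day 7. Every day 3 library lay above every day 0 library, and day 7 overlapped day 3. Pooled over libraries, day 3 was 438-fold above day 0 (95% interval 150 to 2128, for counting error only, since day 0 holds 3 counts), and its edgeR log2 change was 8.61 (SE 0.66, adjusted p = 8.72e-08).

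HOXB3, its cluster neighbour, had 0.0296, 0, 0.0258 and 0 CPM at day 0, 2.49, 1.52, 2.41 and 0.980 at day 3 and 5.60, 3.27, 2.87 and 5.59 at day 7. The 3 days did not overlap. It rose from day 0 to day 3 (edgeR log2 6.85, SE 0.61, adjusted p = 3.42e-07) and again from day 3 to day 7 (1.35, SE 0.34, adjusted p = 0.00505). HOXD8 had no counts in any day 0 WT library, then 0.214, 0.234, 0.328 and 0.335 CPM at day 3 and 1.00, 2.01, 1.19 and 1.19 at day 7. Day 3 was at least 13.1-fold higher than day 0, set against a floor of 3 counts over the group. From day 3 to day 7 it rose again, by 4.92-fold in pooled CPM (interval 3.60 to 6.85) and 2.35 in edgeR log2 (SE 0.34, adjusted p = 0.000163).

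HOXC4 was also without counts in the day 0 WT libraries, and reached 0.195, 0.351, 0.164 and 0.287 CPM at day 3 (at least 11.8-fold higher) and 0.919, 0.347, 0.272 and 0.313 at day 7. Its edgeR adjusted p was 0.000241 for the first step and 0.118 for the second, where the 2 days overlapped. HOXB7 had 0.0593, 0.0250, 0 and 0 CPM at day 0, 0.195, 0.211, 0.187 and 0.0956 at day 3 and 0.836, 0.670, 0.569 and 0.459 at day 7. It rose in both steps (edgeR log2 2.96 and 1.97, SE 0.66 and 0.43, adjusted p = 0.00131 and 0.00163), with no overlap between days.

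Only 6 of the 39 members passed the low-count filter over the 12 WT libraries. From day 0 to day 3 edgeR called 5 of these 6, all higher, against 60.0% of all genes tested. From day 3 to day 7 it called 3 (HOXB3, HOXB7 and HOXD8), all higher, against 46.2%. HOXA2 was the sixth member tested, with 0.0593, 0.349, 0.671 and 0.515 CPM at day 0 and 0.234, 0.117, 0.0468 and 0.120 at day 3, a log2 change of -1.48 (SE 0.62) that missed the edgeR threshold (adjusted p = 0.0509) and passed with DESeq2. On the TPM scale, which divides by transcript length and library total, HOXB2 was the only member at 1 or more in day 3 WT libraries. In all, 9 members, HOXA6 and 8 of the 12 with paralog numbers 10 to 13, had no count in any of the 12 WT libraries. Those 8 are HOXA10, HOXA11, HOXA13, HOXC11, HOXC12, HOXD10, HOXD11 and HOXD12.

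**Figure D2:**
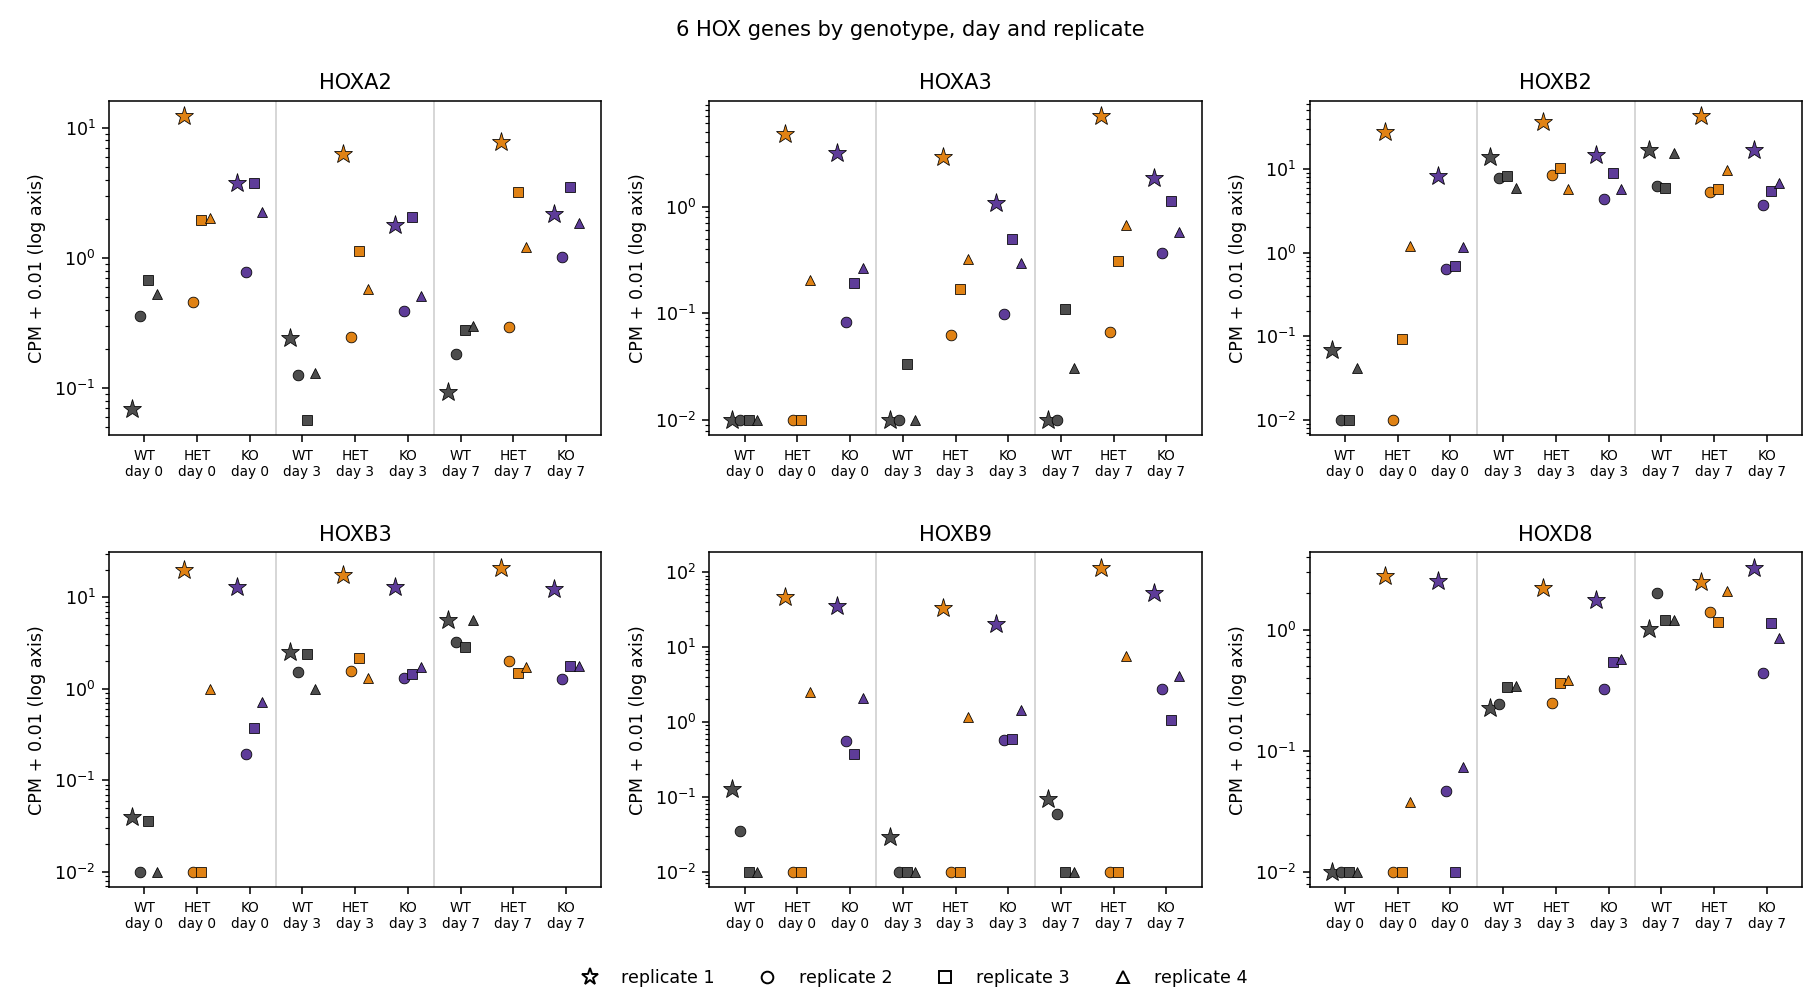
CPM of HOXA2, HOXA3, HOXB2, HOXB3, HOXB9 and HOXD8 in every library, plotted as CPM + 0.01 on a log axis by day, with WT in grey, HET in orange, KO in purple and replicate 1 as a star. HOXB2, HOXB3 and HOXD8 climb with day in WT, while the HOXB9 stars of HET and KO lie far above all WT libraries at each day.

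The profile within the 6 HET and KO replicate 1 libraries covered all 4 clusters and nearly all paralog numbers. HET replicate 1 had counts for 38, 39 and 39 of the 39 members at days 0, 3 and 7, and KO replicate 1 for all 39 at each day, whereas day 0 WT libraries had counts for 3 to 13. At day 0, 29 members reached 1 TPM in HET replicate 1 and 31 in KO replicate 1, and no member did in a WT library. In TPM, which divides by transcript length and so allows genes to be compared, the top of the day 0 HET replicate 1 library was HOXB1 at 14.8, HOXB2 at 14.3 and HOXB9 at 14, with HOXC6 at 8.36. KO replicate 1 was led by HOXB9 at 12.6, HOXC10 at 9.57, HOXC6 at 8.16, HOXD10 at 6.98 and HOXA10 at 5.32. HOXB9 and HOXC6 were thus near the top in both, and the other leading genes were of mixed position. HET replicate 1 also had the 5′ gene HOXC10 at 6.7 TPM. KO replicate 1 had the 3′ genes HOXB3 at 5.22 TPM and HOXB2 at 4.89 TPM beside HOXA10. HOXB1 differed most between these libraries among the leading genes, at 14.8 TPM in HET and 2.89 TPM in KO. With 1 library of each, that difference has no replicate check.

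The last gene of each cluster, with the highest paralog number, was low in both at day 0. HOXC13 had 0.22 TPM in HET replicate 1 and 0.83 TPM in KO replicate 1. HOXA13, HOXB13 and HOXD13, the last genes of their clusters and known from the tail, gut and limb ends, had 0.0700, 0 and 0.0800 TPM in day 0 HET replicate 1 and 0.340, 0.260 and 0.610 TPM in day 0 KO replicate 1. HOXC5, in the middle of its cluster, was as low, at 0.160 and 0.290 TPM. Across the 39 members log2(CPM + 1) of HET and KO replicate 1 correlated with Pearson r of 0.78 at day 0, 0.77 at day 3 and 0.89 at day 7, a description over genes that share each library's depth.

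HOXC12, HOXD11 and HOXD12 were the 3 members with counts in these 6 libraries and in none of the other 30. HOXC12 had 152, 74 and 211 counts in HET replicate 1 at days 0, 3 and 7 and 386, 173 and 374 in KO replicate 1. HOXD12 had 135, 65 and 130 counts and 356, 217 and 154 counts, in the same order. HOXD11, whose promoter is shown above, lay between 0.520 and 4.47 TPM in the 6 libraries.

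**Figure D3:**
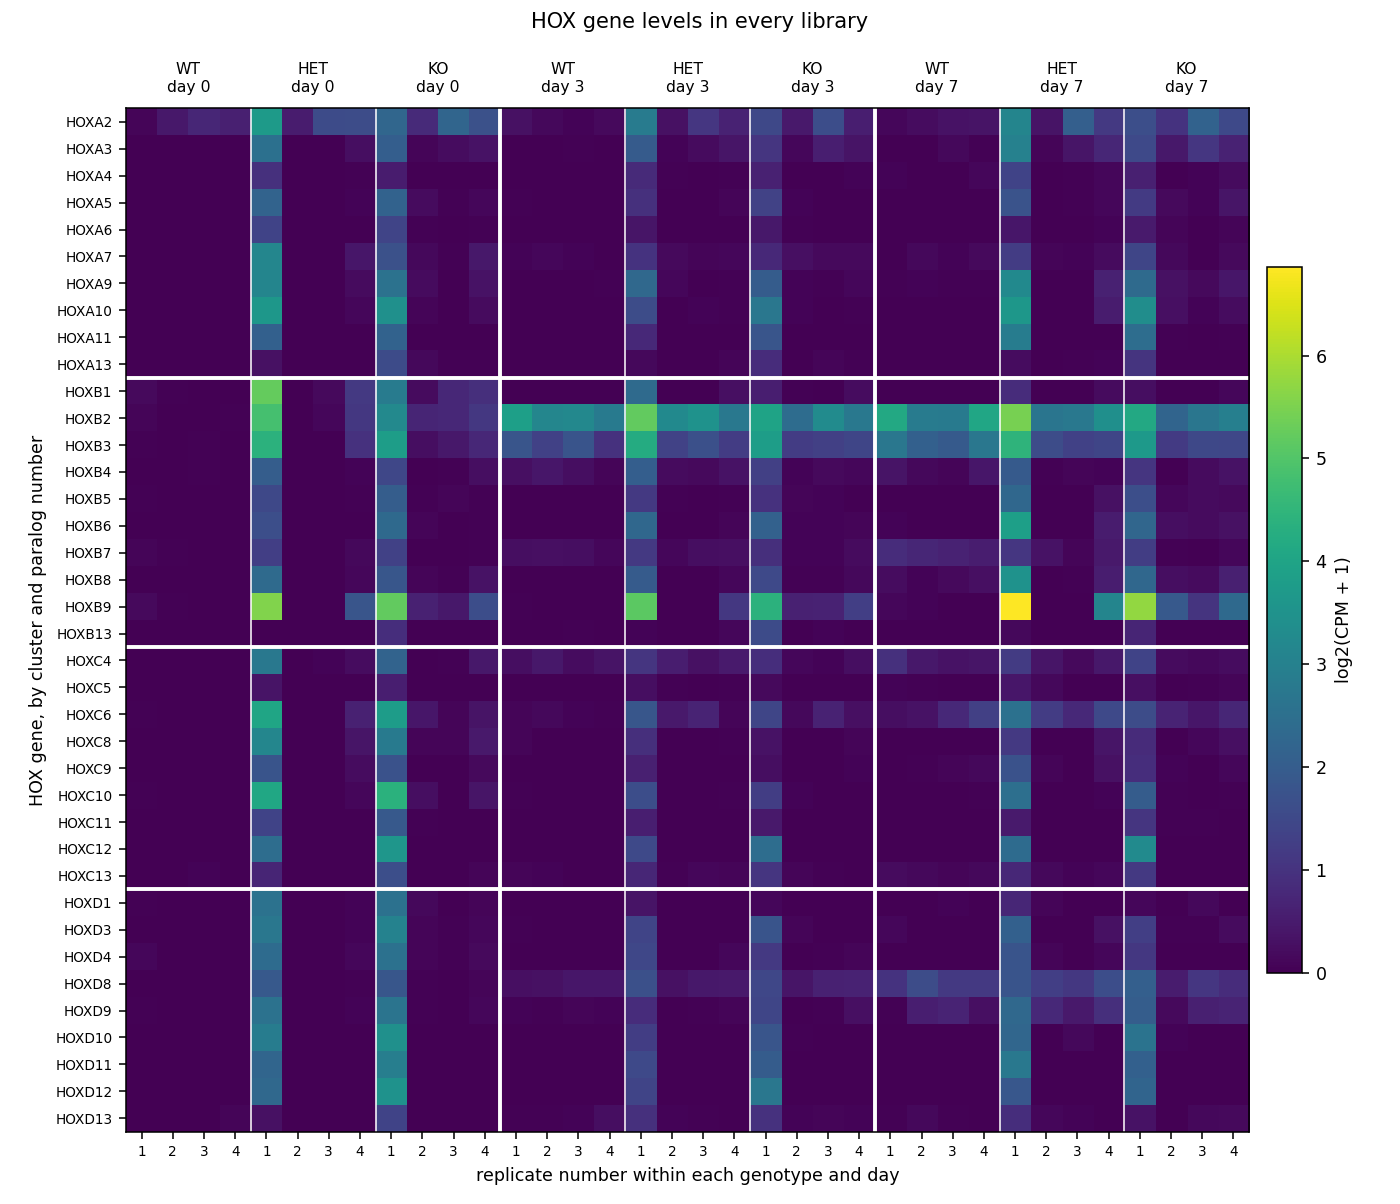
HOX genes (rows, ordered by cluster and paralog number) in the 36 libraries (columns, ordered by genotype, day and replicate), coloured by log2(CPM + 1). Columns of HET and KO replicate 1 are filled through all 4 clusters, and elsewhere colour is confined mainly to HOXB2 and HOXB3 at days 3 and 7.

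The same pattern was counted over all genes. Of members with 10 or more counts at day 0, 32 of 37 (86.5%) in HET and 31 of 39 (79.5%) in KO were at least 10-fold above every other library of their genotype and every WT library of that day, against 0.215% and 0.222% of all genes with 10 or more counts. At day 3 the shares were 48.6% in HET and 50% in KO against 0.0823% and 0.102%, and at day 7 they were 47.4% and 38.5% against 0.114% and 0.0639%. Without replicate 1, only 9 members in HET and 15 in KO reached 10 counts at day 0, WT libraries included. Most members thus entered the day 0 count through the library that was then scored, which raises their share. The shares describe these libraries and are not a test. Members are neighbours in 4 clusters and not independent of one another.

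Among the remaining HET and KO libraries, the 3′ genes were nearer to replicate 1 than the 5′ genes. At day 0, HET replicate 4 held 4.75% of the replicate 1 CPM for paralogs 1 to 4, 3.98% for paralogs 5 to 9 and 0.323% for paralogs 10 to 13. KO replicate 4 held 12.3%, 4.65% and 0.715%. HET replicate 2 held 0.463% of the 3′ value and no count of any member with a paralog number of 5 or above. Its 0.672 CPM for paralogs 1 to 4 lay within the day 0 WT range of 0.449 to 0.929 CPM. HET replicate 3 likewise held 3.05%, all from paralogs 1 to 4. In bulk libraries, few cells with high HOX levels and many cells with low levels cannot be told apart.

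**Figure D4:**
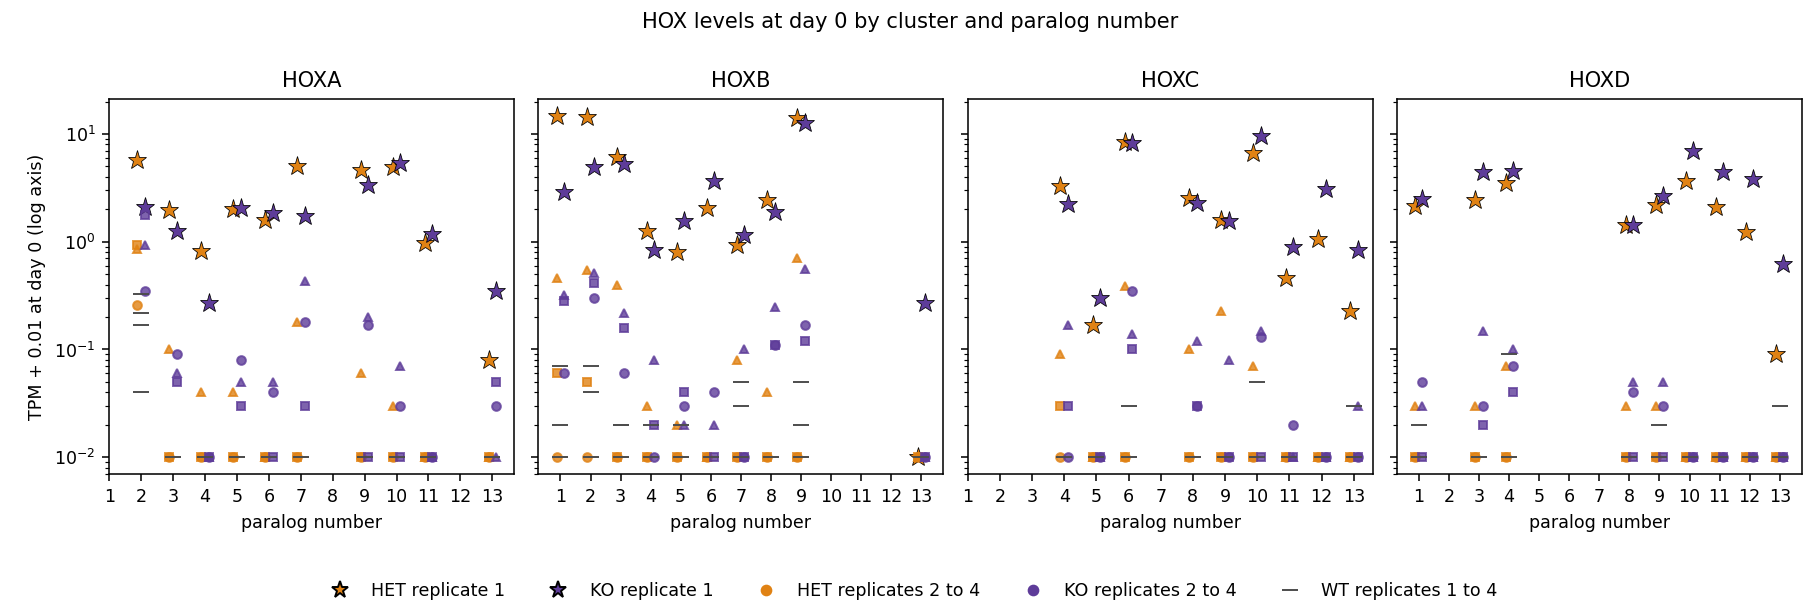
TPM + 0.01 (log axis) of HOX genes at day 0 by paralog number, 1 panel per cluster, with HET in orange, KO in purple, stars for replicate 1, other symbols for replicates 2 to 4 and dashes for WT. Stars run through each cluster, and the other symbols thin out at higher paralog numbers.

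HOX levels in the replicate 1 libraries moved with day. In HET replicate 1 the median ratio of day 3 to day 0 CPM was 0.419, with 33 of 38 members below 1, and that of day 7 to day 3 was 1.78, with 32 of 38 above 1. KO replicate 1 gave 0.434 (34 of 38 below 1) and 1.45 (28 of 38 above 1). By cluster, the median ratio of day 7 to day 0 was highest for HOXB (1.56 in HET and 0.909 in KO) and lowest for HOXC in HET (0.315) and HOXD in KO (0.352). These are single libraries, compared without a test.

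HOXB1, the 3′-most gene of its cluster, went from 36.7 CPM at day 0 to 4.18 at day 3 and 0.828 at day 7 in HET replicate 1, and from 6.18 to 0.494 and 0.188 in KO replicate 1. HOXB2, next to it, went the other way, with 27.5, 36.3 and 42.9 CPM in HET and 8.29, 14.8 and 16.7 in KO. HOXB9 was at 46.5, 33.7 and 115 CPM in HET and 35.7, 20.2 and 52.2 in KO, and per length it was the highest member at day 7 in both (12.2 and 9.05 TPM). HOXC10 was at 16.1, 2.10 and 4.63 CPM in HET and 19.8, 1.35 and 3.01 in KO, so it lost most of its day 0 level by day 7, as HOXB1 did, whereas HOXB2 and HOXB9 ended above theirs. HOXA10 had 11.4, 2.03 and 11.3 CPM in HET and 9.96, 5.53 and 9.36 in KO, a dip at day 3 in both.

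At day 0, the comparison of KO and of HET with WT asks whether HOX genes differ with RAI1 genotype before induction. Here 9 members passed the low-count filter, and edgeR called none of them in either comparison, against 2.08% of all genes called for KO and 1.63% for HET. At an unadjusted p under 0.05 there were 8 for KO and 9 for HET. DESeq2 called 1 and 2, but gave no adjusted p for 7 of the 9 in each, and limma on log2(TPM + 1) called 0 in both. HOXA2, a 3′ gene needed in the hindbrain and second branchial arch, had 0.0593, 0.349, 0.671 and 0.515 CPM in WT, 12.3, 0.448, 1.96 and 2.02 in HET and 3.78, 0.773, 3.73 and 2.24 in KO. All KO libraries were above all WT libraries, and HET replicate 2 lay within the WT range. Pooled CPM was 6.67-fold above WT in KO (interval 5.03 to 8.98) and 11.3-fold in HET (8.64 to 15.1). Its edgeR adjusted p was 0.191 in KO and 0.119 in HET.

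Without HET and KO replicate 1, an alternative added after the data were seen, edgeR called 1 of 6 members that passed in KO, against 2.94% of all genes. For HOXA2, which was not called, pooled CPM in KO replicates 2 to 4 was 5.59-fold above WT (interval 4.15 to 7.63) and in HET replicates 2 to 4 it was 3.75-fold above (2.74 to 5.21). With the replicate number as a block, since same-numbered KO and WT libraries of day 0 deviated together (r of 0.287 to 0.692 over 16348 genes), edgeR called 8 of the 9 members in KO, among them HOXB9 (log2 8.13, adjusted p = 0.00128) and HOXC6 (8.34, adjusted p = 0.00113), against 4.70% of all genes. That fit also held HET, whose replicate 1 did not deviate with replicate 1 of WT or KO (r of -0.042 and -0.095). HOX levels were high in replicate 1 of HET and KO but not of WT, while the block fits the same shift per number to all genotypes. What same-numbered libraries share is not given, and its part in the HOX levels was not tested.

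Counted without a model, 15 of 39 members in KO had all 4 libraries above all 4 WT libraries at day 0, against 4.06% of genes with enough counts. Among them were HOXA2, HOXA3, HOXA5, HOXA7, HOXA13, HOXB1, HOXB2, HOXB3, HOXB5, HOXB8, HOXB9, HOXC6, HOXC8 and HOXD3. None was lower, but a member without WT counts could not be. Most members reached 10 counts only through KO replicate 1, so 1 count in another library could decide. HOXA13 had 68, 3, 1 and 1 counts in KO and none in WT. HOXB5 had 1 count in WT replicate 1 and 1 in KO replicate 4, which differ in CPM only by library size. Leaving out KO replicate 1, 11 of the 15 members with enough counts still lay above WT, against 6.83%. HET gave 1 of 37 against 3.22%, and 1 of 9 without replicate 1 against 5.08%. HOXB9, for example, had 4, 1, 0 and 0 counts in WT, 1588, 0, 0 and 90 in HET and 1236, 15, 10 and 65 in KO. Every KO library exceeded WT, while HET replicates 2 and 3 had none. The KO and HET comparisons share the same WT libraries, and KO against HET called none (0 at an unadjusted p under 0.05 in edgeR, 0 with DESeq2 and with limma) against 0.856%. Of the 9 members tested for KO against HET, 7 had no DESeq2 adjusted p.

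At day 3, edgeR called 5 of 10 members that passed in KO, all higher, against 21.6% of all genes, and 3 of 10 in HET, all higher, against 3.28%. Leaving out any 1 of the 4 WT libraries lowered the count to 1 in KO and to 0 in HET, leaving out KO replicate 1 lowered it to 1 in KO, and leaving out HET replicate 1 lowered it to 1 in HET. HOXA2 and HOXA3 were among the genes called in both.

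HOXA2 had 0.234, 0.117, 0.0468 and 0.120 CPM in WT, 6.24, 0.239, 1.13 and 0.563 in HET and 1.79, 0.379, 2.06 and 0.503 in KO. Both mutants lay above WT, HET replicate 2 by a narrow margin. Its log2 difference was 3.17 in KO (SE 0.97, edgeR adjusted p = 0.0320) and 3.94 in HET (SE 0.98, adjusted p = 0.0442). HOXA3 had 1 count in the 4 WT libraries together and 2.89, 0.0531, 0.159 and 0.313 CPM in HET and 1.07, 0.0891, 0.484 and 0.285 in KO. Pooled, HOXA3 was 81.7-fold higher in KO (interval 14.2 to 3269) and 145-fold higher in HET (25.7 to 5788), with edgeR adjusted p = 0.0199 and 0.0330.

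HOXB9 and HOXC6 were called in KO alone, and no test separated KO from HET for any member at day 3 (0 called of all members against 4.35%, 0 at an unadjusted p under 0.05, 0 with DESeq2 and with limma). Of the 10 members tested for KO against HET, 3 had no DESeq2 adjusted p. HOXB9 counts were 1, 0, 0 and 0 in WT, 1329, 0, 0 and 37 in HET and 777, 25, 23 and 65 in KO. Every KO library was above WT, and HET replicates 2 and 3 again had none. Its log2 difference in KO was 9.30 (SE 2.84, edgeR adjusted p = 0.0320). HOXC6 had 0.0584, 0.117, 0.0468 and 0.0239 CPM in WT, 2.59, 0.372, 0.600 and 0.0625 in HET and 1.71, 0.111, 0.586 and 0.219 in KO, where KO replicate 2 lay just under the highest WT library. Its edgeR adjusted p was 0.0401 in KO.

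Without HET and KO replicate 1, edgeR called 4 of 9 members in KO at day 3, against 13.4% of all genes, among them HOXA2 (log2 2.98, adjusted p = 0.0232), HOXA3 (5.17, adjusted p = 0.00900) and HOXB9 (6.78, adjusted p = 0.0248). HOXC6 was no longer called. In HET the 3 calls were lost (0 of 9 members, against 2.35% of all genes), although HOXA2 and HOXA3 still lay above WT in all 3 remaining libraries, at 5.36-fold and 29.7-fold in pooled CPM. The count of non-overlapping members in HET was also 3 (of 37 against 3.72%, and 3 of 15 against 4.84% without replicate 1). In KO it was 8 of 36 against 9.32%, and 5 of 14 against 9.94%. With the replicate block, edgeR called 5 in HET, adding HOXB9 (log2 9.62, adjusted p = 0.00170) and HOXC6 (3.39, adjusted p = 0.0134), against 8.79% of all genes. The block shares the limit given for day 0, and replicate 1 of KO and HET did not deviate together at day 3 (r = -0.099).

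At day 7, edgeR called the same 4 genes in both mutants, HOXA2, HOXA3 and HOXB9 among them, of 14 that passed, all higher. All genes were called at 32.6% in KO and 14.4% in HET, so the members' share was below that of all genes in KO and above it in HET. The count fell to 2 in KO without WT replicate 1, 2 or 4 and to 2 in HET without WT replicate 1 or 2. HOXA2 had 0.0836, 0.174, 0.272 and 0.292 CPM in WT, 7.78, 0.287, 3.20 and 1.20 in HET and 2.16, 1.01, 3.47 and 1.83 in KO. All KO libraries lay above WT, and HET replicate 2 lay within the WT range. The edgeR log2 differences of HOXA2, HOXA3 and HOXB9 were 3.30, 4.84 and 8.81 in KO (SE 0.87, 1.53 and 2.75, adjusted p = 0.0119, 0.0282 and 0.0262). In HET they were 3.98, 6.09 and 10.05 (adjusted p = 0.0103, 0.0186 and 0.0289). HOXB9 had 3, 2, 0 and 0 counts in WT, 5703, 0, 0 and 199 in HET and 2220, 124, 41 and 136 in KO. The HET call for this gene thus rested on replicates 1 and 4. KO against HET called none (0 at an unadjusted p under 0.05 in edgeR, 0 with DESeq2 and with limma) against 1.40%. Of the 14 members tested for KO against HET, 5 had no DESeq2 adjusted p.

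Leaving out HET and KO replicate 1, HOXA2, HOXA3 and HOXB9 were still called in both mutants at day 7, with edgeR log2 differences of 3.25, 4.28 and 6.24 in KO and 2.72, 3.14 and 6.11 in HET. In HET all 3 genes overlapped WT. HOXB9 had 0, 0 and 199 counts in HET replicates 2 to 4, so that call rested on replicate 4. HOXA3 had 0.0573, 0.302 and 0.660 CPM there, beside 0, 0, 0.0989 and 0.0209 in WT. Not all of these calls held when 1 library alone was left out. Without KO replicate 1, HOXA3 and HOXB9 were no longer called in KO (edgeR adjusted p = 0.0725 and 0.0938), and without HET replicate 1, HOXB9 was no longer called in HET (adjusted p = 0.0601). HOXB9 also lost its call in both mutants without any 1 of the WT libraries. HOXA3 lost its call in KO without WT replicate 1, 2 or 4 or KO replicate 3, and in HET without WT replicate 1 or 2. In addition, HOXB3, which rose with induction in WT, was then lower in both mutants. HOXB3 had 5.60, 3.27, 2.87 and 5.59 CPM in WT, 2.01, 1.49 and 1.71 in HET replicates 2 to 4 and 1.26, 1.78 and 1.77 in KO replicates 2 to 4, with no overlap, against 21.1 in HET replicate 1 and 12.2 in KO replicate 1. Its edgeR log2 difference without replicate 1 was -1.49 in KO (SE 0.31, adjusted p = 0.00316) and -1.50 in HET (SE 0.31, adjusted p = 0.00386). HOXB7 fell in KO (log2 -4.10, SE 0.76, adjusted p = 0.00185), from 0.459 to 0.836 CPM in WT to 0.0225, 0 and 0.0902 in KO replicates 2 to 4.

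HOXC4 was also lower in KO on that fit (log2 -1.68, SE 0.57, adjusted p = 0.0392), a call that was lost when WT replicate 1 was left out too (adjusted p = 0.114). HOXB2 was at -1.14 in KO with an adjusted p of 0.0544 and not called. The fit without replicate 1 called 7 of 12 members in KO (4 higher, 3 lower) against 37.2% of all genes, and 5 in HET (4 higher, 1 lower) against 33.3%. By non-overlap with all 4 libraries, 9 of 39 members were higher in KO against 17.0%, and 1 of 38 in HET against 5.31%. Without replicate 1 the KO count was 9 of 25 higher (against 19.0%) and 4 lower (HOXB3, HOXB7, HOXC4 and HOXC13, against 17.1%), and HET had 1 of 20 higher (against 19.5%) and 2 lower (HOXB3 and HOXB7, against 12.8%).

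Over time in the mutants, 18 members passed the filter in each genotype. In each step, DESeq2 gave no adjusted p for 14 of these 18 in HET and 9 in KO, so its counts cover only the rest. In HET edgeR called none in either step (against 48.3% and 41.2%), with 0 at an unadjusted p under 0.05 and 0 with DESeq2 and limma in both. In KO it called 2 lower from day 0 to day 3, against 59.3%, and none from day 3 to day 7 (against 47.8%, 0 at an unadjusted p under 0.05, 0 with DESeq2 and with limma). The 2 were HOXB1 (log2 -3.44, SE 1.15, adjusted p = 0.0190) and HOXC8, a gene of the trunk (-4.24, SE 1.52, adjusted p = 0.0267). HOXB1 had 6.18, 0.147, 0.689 and 0.895 CPM at day 0 and 0.494, 0.0223, 0 and 0.175 at day 3 in KO, and the days overlapped. HOXC8 had 5.98, 0.0737, 0.0725 and 0.384 CPM and then 0.260, 0, 0 and 0.0657. Without KO replicate 1 of day 0 neither was called (log2 -1.66 and -1.08, edgeR adjusted p = 0.191 and 0.521). Without KO replicate 1 of day 3 both were (-4.61 and -5.80, adjusted p = 0.0116 and 0.0229). Both calls were also lost without KO replicate 2 or 3 of day 3, and that of HOXC8 without replicate 4. With HET and KO replicate 1 left out at all days, neither passed the low-count filter, so neither was tested.

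On the fit without replicate 1, the induction genes appeared in the mutants too. From day 0 to day 3 edgeR then called HOXB2, HOXC4 and HOXD8 higher in HET (log2 4.28, 2.31 and 4.57, against 44.7% of all genes) and HOXB2, HOXB3 and HOXD8 higher in KO (3.13, 2.00 and 3.83, against 51.9%). HET also had HOXD8 and HOXD9 higher from day 3 to day 7 (2.20 and 4.20, against 42.1%). HOXB2 had 0, 0.0835 and 1.18 CPM in HET replicates 2 to 4 at day 0 and 8.47, 10.3 and 5.72 at day 3, and in KO 0.626, 0.689 and 1.15 became 4.39, 8.86 and 5.69. The day 3 values overlapped those of WT.

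The difference between KO and WT in the change from day 0 to day 3 was tested on all 36 libraries, where 36 members passed. Members without any WT count had no usable estimate in this or the other difference terms, here for example HOXA6 (SE 16020) and HOXC12 (SE 20728). They could not be called, which lowers the share of members called. HOXB2 alone was called, with a smaller rise in KO (log2 difference -6.86, SE 2.12, edgeR adjusted p = 0.0390), a share below the 8.55% of all genes called. At day 0 the KO libraries lay at 0.626 to 8.29 CPM and the WT libraries at 0 to 0.0593, and at day 3 they overlapped, at 4.39 to 14.8 and 5.93 to 13.7. Without HET and KO replicate 1 it stood at -5.45 (adjusted p = 0.00508), and HOXB3 (-4.81, adjusted p = 0.0208) and HOXC4 (-6.29, adjusted p = 0.0233) were called as well, 3 of 14 members against 5.86%. The other 3 terms called none in edgeR. For KO from day 3 to day 7 the background was 18.5%, with 0 members at an unadjusted p under 0.05 and 1 by DESeq2. For HET from day 0 to day 3 it was 0.271%, with 4 and 3, and for HET from day 3 to day 7 it was 4.74%, with 0 and 1. Limma called 0 in each, and DESeq2 gave no adjusted p for 17, 17 and 19 of the 36 members, in the same order.

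Other genes tied to HOX regulation were taken from lists chosen with results of these data known. Of 27 noncoding RNAs of the HOX clusters, 25 were found, and 3, 2 and 2 passed the filter at days 0, 3 and 7. Their summed CPM at day 0 was 0.0998 to 0.237 in WT, 47.1 in HET replicate 1 and 41.9 in KO replicate 1, and at most 1.74 in the other mutant libraries. HOTAIR, transcribed from the HOXC cluster, had 2.93 CPM in day 0 HET replicate 1 and 8.40 in KO replicate 1, and no more than 0.0368 elsewhere at that day. HOXB-AS1 rose in WT from day 0 to day 3 (edgeR log2 8.74, SE 0.61, adjusted p = 2.71e-07), as HOXB2 and HOXB3 beside it did.

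At day 7, HOXB-AS1 had 3.04, 2.03, 1.85 and 2.65 CPM in WT, 4.08, 0.458, 0.378 and 0.582 in HET and 0.423, 0.180, 0.309 and 0.481 in KO. All KO libraries and 3 of the 4 HET libraries lay below WT, and the fourth, HET replicate 1, lay above. It fell in KO (edgeR log2 -2.79, SE 0.77, adjusted p = 0.0149), and without replicate 1 in both KO (-2.96, adjusted p = 0.000226) and HET (-2.52, adjusted p = 0.000694). HOTAIRM1, a noncoding RNA of the HOXA cluster, had 0.306, 0.273, 0.519 and 0.376 CPM in WT at day 7, 27.5, 0.430, 1.31 and 1.86 in HET and 1.69, 0.742, 1.47 and 1.20 in KO. It rose in HET (edgeR log2 4.57, adjusted p = 0.0190), and without replicate 1 by 1.51 in HET (adjusted p = 0.0357) and 1.54 in KO (adjusted p = 0.0297). The 2 list members tested had a median log2 difference of -0.52 in KO and 1.96 in HET at day 7, beside -0.04 and 0.00 over all genes.

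Among the 9 TALE cofactors, which all passed, edgeR called none at day 0. At day 3 it called 3 higher in KO, MEIS3 and PBX4 among them (list median 0.68 beside -0.05 over all genes, with 21.6% of all genes called), and PBX4 in HET (median 0.18 beside 0.02, with 3.28%). On the fit without replicate 1, MEIS3 and PBX4 were called in KO (2 of 9 against 13.4%) and PBX4 in HET (1 of 9 against 2.35%). At day 7 it called 1 higher in each mutant (median 0.21 in KO and 0.23 in HET), against 32.6% and 14.4% of all genes. Without replicate 1 there were 2 in KO, MEIS1 among them, and 1 in HET, against 37.2% and 33.3%.

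MEIS1, a direct HOX partner, followed the HOX genes in replicate 1, with 0.237, 0.798, 0.310 and 0.450 CPM in WT at day 0, 47.9, 1.49, 1.75 and 3.25 in HET and 20.7, 2.69, 3.33 and 3.52 in KO. No mutant library overlapped WT. With all libraries it was not called (edgeR adjusted p = 0.0965 in HET and 0.143 in KO), and without replicate 1 it was the cofactor called in both (log2 2.27, adjusted p = 0.0133 in HET, and 2.82, adjusted p = 0.00258 in KO), 1 of 9 against 1.89% of all genes in HET and 2.94% in KO.

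**Figure D5:**
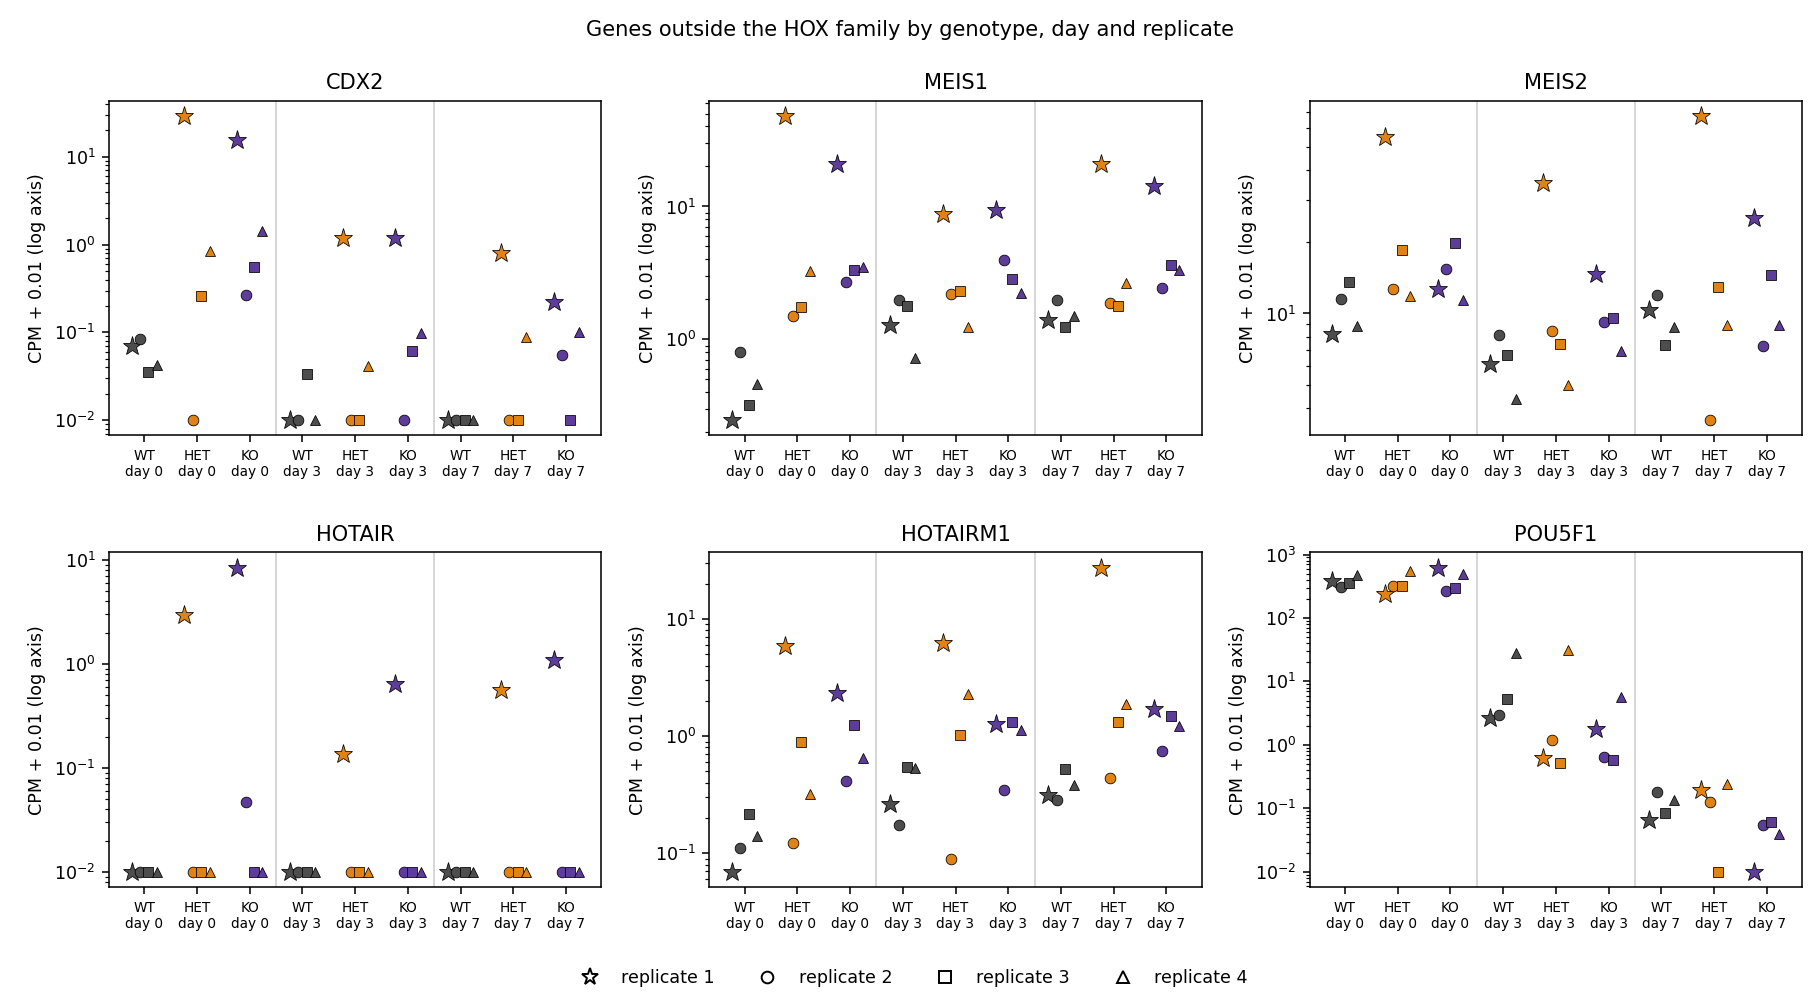
CPM of CDX2, MEIS1, MEIS2, HOTAIR, HOTAIRM1 and POU5F1 in every library by day, with WT in grey, HET in orange, KO in purple and replicate 1 as a star. The day 0 stars of CDX2, MEIS1 and HOTAIR lie far above the other libraries, and those of POU5F1 do not.

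Of the 14 upstream activators, 9 passed at day 0 and 7 at days 3 and 7. In KO edgeR called 2 higher at day 0, FGF8 among them (list median 1.20 beside 0.01 over all genes, with 2.08% of all genes called), RARB and GDF11 at day 3 (0.16 beside -0.05, with 21.6%) and 2 at day 7, EVX2 among them (0.67 beside -0.04, with 32.6%). In HET it called WNT3A at day 0 (0.77 beside 0.01, with 1.63%) and EVX2 at day 7 (0.01 beside 0.00, with 14.4%). With replicate 1 of both mutants left out, FGF8 was no longer called in KO at day 0 (log2 1.5, edgeR adjusted p = 0.0709) nor WNT3A in HET (2.5, adjusted p = 0.0743). RARB, GDF11 and EVX2 were still called, WNT3A was called in KO at day 0, and RARG was called lower in both mutants at day 7. CDX2, a known activator of 5′ HOX genes, had 0.0593, 0.0749, 0.0258 and 0.0322 CPM in WT at day 0, 29.2, 0, 0.251 and 0.840 in HET and 15.7, 0.258, 0.544 and 1.41 in KO. All KO libraries and 3 HET libraries were above WT, and the fourth had none. It was not called (edgeR adjusted p = 0.194 in HET and 0.211 in KO). Its replicate 1 level was 1.17 CPM in both mutants at day 3.

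EVX2, a homeobox gene beside HOXD13, had 0, 1.24, 0.395 and 1.57 CPM in WT at day 7, 10.3, 5.59, 15.1 and 8.81 in HET and 17.1, 10.6, 21.3 and 13 in KO. Neither mutant overlapped WT, and replicate 1 was not apart. The edgeR log2 difference was 4.26 in KO (SE 0.71, adjusted p = 0.000809) and 3.60 in HET (SE 0.69, adjusted p = 0.00512), and without replicate 1 it was 4.15 in KO (adjusted p = 0.00132) and 3.44 in HET (adjusted p = 0.00420).

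All 22 genes of the Polycomb and trithorax groups passed, and edgeR called none at day 0. It called 3 higher (JARID2, KDM6B and CBX8) and 3 lower (EED, ASH2L and SUZ12) in KO at day 3, with a list median of -0.07 beside -0.05 over all genes. That was 27.3% of the list against 21.6% of all genes. SUZ12 was no longer called without HET and KO replicate 1 (log2 -0.46, edgeR adjusted p = 0.153), which left 5 of 22 against 13.4%. At day 7 edgeR called 3 higher, PHC1 and CBX8 among them, and 2 lower (EZH2 and CBX2) in KO, 22.7% of the list against 32.6% of all genes. In HET it called 2 higher, CBX8 among them, and 1 lower (EZH2), 13.6% against 14.4%. The list was thus called at or below the rate of all genes at day 7. Without replicate 1, CBX8 was no longer called in HET (log2 0.57, adjusted p = 0.0615), and EZH1 and KDM6B were among the genes then called lower in both mutants, with 7 of 22 called in each (31.8% against 33.3% in HET and 37.2% in KO). EZH2, the enzyme that sets the repressive histone mark on HOX clusters, had 61.2, 65.3, 49.7 and 63.7 CPM in WT at day 7, 31.2, 42.2, 44.0 and 46.8 in HET and 36.5, 37.9, 38.2 and 41.1 in KO. It fell in both (edgeR log2 -0.65 and -0.61, adjusted p = 0.00140 and 0.00536 in KO and HET), and did so without replicate 1 (-0.67 and -0.60, adjusted p = 0.00122 and 0.00272). At day 0 it had 103 to 132 CPM in KO, 90.1 to 125 in HET and 104 to 127 in WT, and replicate 1 was the highest library of HET and the lowest of KO.

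Genes of the anterior neural plate, where HOX genes are known to be silent, included 4 that fell in KO at day 7. None of 9 tested was called at day 0, and at day 3 edgeR called EN2 higher and HESX1 and DMBX1 lower in KO and PAX6 higher in HET, of 7 tested, against 21.6% and 3.28% of all genes. HESX1 and DMBX1 were no longer called without HET and KO replicate 1 (log2 -1.29 and -2.41, edgeR adjusted p = 0.0886 and 0.0567). At day 7, of 12, 8 passed and edgeR called 4 lower in KO (PAX6, EMX1, SIX3 and HESX1, list median -1.67 beside -0.04 over all genes), against 32.6% of all genes. It called these 4 without replicate 1 too, against 37.2%. In HET it called none with all libraries (3 at an unadjusted p under 0.05, against 14.4% of all genes called). Without replicate 1, PAX6, EMX1 and SIX3 were lower in HET (log2 -1.45, -2.14 and -1.75, adjusted p = 0.0438, 0.0102 and 0.0310), against 33.3%. PAX6 had 22.5, 14.7, 22.3 and 20.8 CPM in WT at day 7, 11.4, 8.31, 4.43 and 12.2 in HET and 0.165, 0.922, 0.978 and 4.15 in KO. The 3 genotypes did not overlap, and the KO difference was -3.75 (SE 0.69, edgeR adjusted p = 0.00144), and -3.42 without replicate 1 (adjusted p = 0.000877).

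Markers of other cell types were summed in the same libraries. At day 0 the 5 pluripotency markers gave 2457 CPM in HET replicate 1 and 3952 in KO replicate 1, beside 2282 to 2938 in WT and 1880 to 3284 in replicates 2 to 4 of the mutants. The 9 mesoderm markers gave 3.60 CPM in HET replicate 1 and 1.96 in KO replicate 1, beside 1.34 to 1.92 in WT, and the 6 endoderm markers 2.64 and 4.74 beside 1.61 to 2.61. Mesenchyme markers gave 430 and 191 CPM beside 275 to 1196 in WT, and peripheral and neural crest markers 6.12 and 25 beside 5.57 to 11.6. Neural progenitor markers gave 1356 and 639 CPM beside 923 to 1372, neuronal markers 392 and 299 beside 240 to 506, and trophoblast and amnion markers 1.11 and 6.21 beside 0.997 to 2.45. The pluripotency, endoderm, crest and trophoblast sums of KO replicate 1 and the mesoderm sum of HET replicate 1 were the highest of the 12 day 0 libraries. The endoderm sum of HET replicate 1 was not apart, since HET replicates 2 and 3 had 2.84 and 3.76 CPM and KO replicate 2 had 2.76, with low HOX sums. The mesoderm sum of KO replicate 1 lay below those of HET replicates 3 and 4, at 2.17 and 2.10. HAND1 had no count in any day 0 WT or HET library and CGA none in HET, and all other markers of these lists had counts in every genotype at day 0. Their part in the HOX levels was not tested.

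Over the 36 libraries, the members moved together. The median Pearson r of log2(CPM + 1) over the 741 pairs was 0.84, with 0.85 for the 172 pairs within a cluster and 0.88 for the 42 pairs of one paralog number, values that all share the contrast between replicate 1 of the mutants and the rest. HOXB2 was the member with the highest group mean, 5.04 TPM in HET at day 3. Of 14964 other genes at a mean of 1 CPM or more, those most like it over the 36 libraries included ASGR1 (r = 0.865), HOXB-AS1 (0.853), TSHZ1 (0.834) and LINC02381 (0.803). HOXB-AS1 lies in the HOXB cluster and TSHZ1 codes for a zinc-finger protein. LINC02381 is a noncoding RNA.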

How the data were processed

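Ribosomal RNA was removed from total RNA of H9 cells before paired sequencing with 151 bp reads, per the labels' protocols. Per the submitters' processing notes, cutadapt 4.8, FastQC 0.11.8, MultiQC 1.20, STAR 2.7.8a and RSEM 1.3.3 were used with GRCh38, and the annotation and strand setting are not given in the sources used here. Expected counts, deposited by gene, held no fractional value. The authors also deposited TPM values, of which 1 structural RNA, RN7SL1, took up to 41.1% in a library. Deposited FPKM values were not used for a result.

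CPM used the column sums of 62710 genes, after 4 reporter rows were set aside. edgeR 4.0.16 (R 4.3.3; TMM, filterByExpr, quasi-likelihood test, Benjamini-Hochberg adjustment over all genes tested, threshold 0.05) compared genotypes within the 12 libraries of a day, days within the 12 of a genotype, and changes between genotypes over all 36. DESeq2 1.42.0 and limma 3.58.1 on log2(TPM + 1) and log2(TPM + 0.1) were alternatives, and the edgeR, DESeq2 and limma scripts were tested on simulated data. Tables and figures used Python 3.11.15. Ratios of pooled CPM have exact 95% intervals and groups without counts a floor of 3 counts, for counting error only. Non-overlap was counted for genes with at least 10 counts in the libraries compared. Where replicate 1 of a mutant held most of these, 1 count in each other library could suffice, and members without WT counts could not be lower.

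Members and gene lists were chosen with earlier results of these data known. Members named are those called in a comparison or with a group mean of at least 1 TPM. Others named were chosen after their values were seen, as was the fit without HET and KO replicate 1. Same-numbered libraries deviated together (every r over 0.1) in 3 of 15 pairs of groups, KO and WT at day 0 (0.287 to 0.692), KO and WT at day 3 (0.121 to 0.594) and HET and WT at day 3 (0.166 to 0.796), over 16348 genes. The results of some genes are not reported here, and counts of members include them.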

Additional observations from a re-analysis of the deposited data

Results flagged for a closer look

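In all 6 HET and KO groups, replicate 1 stood apart in summed HOX CPM. Its gap to the nearest other library, as a share of the group's range, was 0.965 in HET and 0.968 in KO at day 0, 0.970 and 0.907 at day 3, and 0.938 and 0.941 at day 7. Chance sets a library apart in about 1 in 20 groups where libraries are independent and values are not strongly skewed. Neither condition was tested for these sums, and what same-numbered libraries share is not given. The rate is therefore not a test of these 6 groups, which describe the libraries only.

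By gene, among members with 10 or more counts in the group, replicate 1 stood far above the other 3 libraries for 36 of 36 members in HET and 37 of 39 in KO at day 0, 35 of 37 and 27 of 36 at day 3, and 28 of 38 and 25 of 38 at day 7. In WT the same held for 1 of 13 members at day 7 (HOXC4, 0.919 CPM in replicate 1) and for none at days 0 and 3. A library other than replicate 1 stood apart for 1 of 10 members, HOXD13 in WT at day 3, with 1, 1, 2 and 8 counts. At day 0 most mutant members reached 10 counts only through replicate 1, for example HOXC12 with 152, 0, 0 and 0 counts in HET. Such members could hardly give another outcome, and in WT at day 0 only 2 members had enough counts. No share of all genes is given beside these counts. Members share clusters and libraries, so these counts are not independent.

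The change from day 0 to day 3 differed between KO and WT for 1 of 36 members tested, HOXB2, which rose less in KO (edgeR log2 difference -6.86, SE 2.12, adjusted p = 0.0390). The members' share was below the 8.55% of all genes called for this term, but members without WT counts had no usable estimate and lower that share.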

How the results depend on the processing

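Counts of HOX genes called moved with the method. The share of all genes called moved too. With the replicate block it went from 2.08% to 4.70% in KO at day 0 and from 3.28% to 8.79% in HET at day 3. Without HET and KO replicate 1 it went from 21.6% to 13.4% in KO at day 3. The counts in this section show dependence on the setting and are not results about HOX genes by themselves. Only in the WT steps did DESeq2 give an adjusted p for every member tested, and a member without one cannot be called. DESeq2 called 1 in KO and 2 in HET at day 0 (edgeR 0 and 0), 1 in KO from day 0 to day 3 (edgeR 2), 5 and 3 for the difference of KO and of HET from WT in that step (edgeR 1 and 0), and 1 and 1 for those from day 3 to day 7. Without the low-count filter there was 1 in HET at day 0, 10 in KO and 5 in HET at day 3, 13 and 10 at day 7, 7 in WT from day 3 to day 7 and 4 in KO from day 0 to day 3. Limma on log2(TPM + 1) called 0 in both mutants at days 3 and 7, in KO from day 0 to day 3 and for the KO difference in that step. On log2(TPM + 0.1) it called 0 in both mutants at day 3 and for that difference. Fitting all 36 libraries gave 2 in KO and 3 in HET at day 0, 3 in KO at day 3, 0 in WT from day 3 to day 7, and 1 each in HET and KO from day 0 to day 3. The structural RNA covariate gave 3 in KO at day 3.

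With the replicate number as a block there were 8 in KO and 8 in HET at day 0, 5 in HET at day 3, 4 and 5 in the HET steps, 7 and 7 in the KO steps, and 4 and 1 for the KO and HET differences from day 0 to day 3. Other counts under the block were within 1.5 times. Outside the 3 pairs of groups that deviate together, the libraries share only a number, and within those 3 each library correlated best with its own number only for KO and WT at day 0.

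Without replicate 1 of every group there were 3 in KO and 0 in HET at day 3, 3 and 2 in the HET steps and 3 for the KO difference. Without HET and KO replicate 1, chosen after seeing the data, there was 1 in KO at day 0, 0 in HET at day 3, 7 in KO at day 7, 3 and 2 in the HET steps and 3 for the KO difference.

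Leaving out 1 library gave 0 to 2 in KO at day 0 (2 without HET replicate 1) and 0 to 2 in HET (2 without HET replicate 2, 1 without replicate 4). At day 3 it gave 1 to 5 in KO (2 without KO replicate 3) and 0 to 5 in HET (1 without KO replicate 3, 5 without HET replicate 4), and at day 7 it gave 2 to 6 in both. From day 0 to day 3 it gave 0 to 3 in HET (3 without day 0 replicate 1) and 0 to 4 in KO (4, 0, 1 and 1 without day 3 replicates 1 to 4). From day 3 to day 7 it gave 0 to 1 in KO (1 without day 3 replicate 1). The KO difference gave 0 to 2, with 0 without any day 0 WT library, day 0 KO replicate 1, day 3 WT replicate 1 or 3, or day 3 KO replicate 1, 2 or 3, and 2 without day 0 HET replicate 1. Of 617 alternative values of the 27 single-gene calls, 488 kept direction and threshold, 129 kept direction only and 0 reversed. The cause was not tested. Most WT members lie near a floor of 3 counts, which limits every fold against WT.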

Other observations

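WNT3A, a WNT ligand, had 0.0296, 0.324, 0.181 and 0.354 CPM in WT at day 0, 8.05, 1.90, 0.668 and 1.23 in HET and 2.43, 2.14, 2.39 and 0.736 in KO. Every mutant library was above every WT library, and replicate 1 was the highest in both mutants. The edgeR log2 difference was 3.73 in HET (SE 0.82, adjusted p = 0.0391) and 3.11 in KO (SE 0.82, adjusted p = 0.0798). Without HET and KO replicate 1 it was 2.5 in HET (adjusted p = 0.0743) and 2.97 in KO (adjusted p = 0.0230), so the side of the threshold changed in both. The gene was chosen after its values were seen.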
